A study of Mus musculus with 40 samples.

Results

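The subject is what oral antibiotics alone did to gene expression in adolescent female mice that never received a drug of abuse. It rests on 10 of the 40 libraries of the series, chosen by their labels: 5 from mice labelled Abx Saline and 5 from mice labelled H2O Saline. Both groups were wild-type C57BL/6J females, a standard inbred laboratory strain, that entered the experiment on postnatal day 25 and received saline under the skin for 5 days. The antibiotics-saline mice were given antibiotics by mouth, which the sources used here do not name, and the water-saline mice drank plain water. The tissue label is brain with all cell types, and the series title names the medial prefrontal cortex. The other 30 libraries come from adolescents injected with morphine and from adults, starting on postnatal day 55, with either injection and either drink. They enter below only through the fit they share and through 2 tests of whether the change with antibiotics differed by age or by injection. No label says that the 5 libraries of a group are from separate animals, and p-values thus measure the spread between these samples, which may be technical.

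Oral antibiotics deplete the bacteria of the gut, which make short-chain fatty acids and tryptophan metabolites and shape the supply of immune signals to the body. In rodents such depletion has been linked to altered microglia, myelin genes and stress hormones, and the prefrontal cortex, which matures through adolescence, is one of the regions studied. Immediate early genes are transcribed within minutes of neuronal firing. Many of them carry a cAMP response element in their promoter, the short sequence bound by the activity-regulated factor CREB.

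Polyadenylated RNA was read as raw counts per gene, with 8636712 to 10139880 counts in each of the 10 libraries, so that 3 counts in a library stood for 0.296 to 0.347 CPM. CPM, the counts-per-million unit, is given below on the library size scaled by TMM, a method that balances libraries on their common genes. Markers of excitatory neurons of the cortex were high in all 10 libraries: their summed level ran between 8445 and 9250 CPM with antibiotics and between 8547 and 10042 CPM on water. Of 12 choroid plexus and ependymal markers only 3 were high enough to be tested, and the choroid factor Otx2 was at 0 in all 10 libraries. Water-saline replicates 4 and 5 had the highest summed astrocyte markers of all 10 libraries, at 7940 and 8602 CPM. No clear gap set them apart, since water-saline replicate 2 lay between at 6805 CPM, above replicates 1 and 3 at 5918 and 5751 CPM. The excitatory neuron sums of replicates 4 and 5 were the highest as well. Replicate 5 had 5.68% of its counts in mitochondrially encoded genes. This share was 3.72% to 4.30% in the 5 antibiotics-saline libraries and 3.68% to 4.57% in the other 4 water-saline libraries, with 4.57% in replicate 4 and 4.36% in replicate 2. Values that changed most when water-saline replicates 4 and 5 were both left out are also given without them.

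Antibiotics changed few genes at the level this design could call. Of 17880 genes tested, 7 passed edgeR's quasi-likelihood test at an adjusted p under 0.05, which is 0.0391% of the genes: 4 were higher (0.0224%) and 3 lower (0.0168%). At an unadjusted p under 0.05 there were 1744 genes in either direction (9.75%), with 770 higher (4.31%) and 974 lower (5.45%). The test was two-sided, so with no change in any gene a share of 0.05 would pass over both directions together. DESeq2 called 45 genes and limma-voom called 18. The genes called by edgeR were the transcription factor gene Klf10, the noncoding genes Gm16229 and Gm11223 and the X-linked gene Armcx5, which rose, and the antiproliferative early gene Btg2 and Zfp950 and Zfp738, both of the zinc finger type, which fell.

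Klf10 encodes a zinc finger transcription factor induced early by TGF-beta. It had 50.1, 45.7, 56.6, 56.3 and 58.3 CPM in antibiotics-saline libraries 1 to 5, against 37.1, 31.0, 37.1, 42.0 and 37.1 CPM in water-saline libraries 1 to 5. Every antibiotics library lay above every water library. The log2 fold change was 0.53 ± 0.09 (SE; adjusted p = 0.00673). In the GRCm38 annotation the gene lies on the minus strand at chr15:38291463-38300706.

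Gm16229 had 25.2, 22.7, 21.5, 19.9 and 25.9 CPM with antibiotics, against 14.8, 15.7, 15.6, 16.5 and 14.9 CPM on water. The lowest antibiotics library was above the highest water library, and the water libraries were close together. The log2 fold change was 0.57 ± 0.10 (SE; adjusted p = 0.00673). This antisense transcript, at chr10:127663839-127665484 on the plus strand, lies wholly inside Nab2, a gene on the other strand that encodes a corepressor of the early growth response factors. Nab2 itself had 54.1, 43.6, 46.7, 45.1 and 55.6 CPM with antibiotics, against 38.1, 33.7, 37.8, 37.7 and 40.8 CPM on water. Its groups did not overlap either, but its log2 fold change of 0.38 ± 0.09 (SE) missed the threshold (adjusted p = 0.0723). No source used here says whether counting used strand, so reads of Gm16229 and Nab2 cannot be told apart.

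Armcx5 belongs to a family of X-linked armadillo repeat genes that lie in a cluster with the Gprasp and Bex genes. It had 22.2, 23.3, 24.6, 23.8 and 21.0 CPM with antibiotics, against 17.6, 18, 18.6, 14.4 and 12 CPM on water. The groups did not overlap, and water replicates 4 and 5 were the lowest libraries. The log2 fold change was 0.52 ± 0.11 (SE; adjusted p = 0.0434). The gene, at chrX:135742733-135747322 on the plus strand, shares its start and strand with the longer Gprasp1, whose log2 fold change was 0.05 ± 0.07 (SE; adjusted p = 0.832), so the share of reads that belongs to each is uncertain. Gprasp1 is outside the rule for named genes and was picked after its values were seen, because of this overlap.

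Gm11223, a processed pseudogene at chr4:69925630-69926079 on the minus strand, had 12, 15.5, 15.8, 14.8 and 16.4 CPM with antibiotics, against 10.8, 9.65, 7.36, 7.45 and 6.82 CPM on water. Its groups did not overlap, with a change of 0.83 ± 0.17 on the log2 scale (SE; adjusted p = 0.0434). A processed pseudogene can take reads from its parent gene, so this call is uncertain.

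Btg2, which restrains cell division and is switched on by neuronal activity and by DNA damage, was the largest fall among the 7. It had 21.0, 18.3, 23.6, 14.6 and 19.0 CPM with antibiotics, against 29.8, 34.0, 35.7, 44.3 and 45 CPM on water. All antibiotics libraries lay below all water libraries, and water replicates 4 and 5 were the highest. The log2 fold change was -0.97 ± 0.18 (SE; adjusted p = 0.0265), which puts the antibiotics group at 0.51 times the level of the water group. The gene lies at chr1:134075170-134079120 on the minus strand.

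The zinc finger gene Zfp950, at chr19:61053840-61140840 on the minus strand, had 22.4, 22.2, 22.8, 21.4 and 22 CPM with antibiotics, against 31.0, 34.8, 29.4, 24.8 and 36.8 CPM on water. The antibiotics libraries were nearly level, all below the lowest water library, replicate 4. Its log2 fold change was -0.50 ± 0.10 (SE; adjusted p = 0.0365). It overlaps the kinase gene Grk5 on the other strand, whose log2 fold change was -0.07 ± 0.11 (SE; adjusted p = 0.869). Zfp738, another zinc finger gene, at chr13:67658685-67687071 on the minus strand, had 30.5, 30.5, 33.5, 35.7 and 34.5 CPM with antibiotics, against 40.5, 46.8, 41.5, 38.0 and 48.7 CPM on water. Its groups did not overlap and its log2 fold change was -0.39 ± 0.08 (SE; adjusted p = 0.0434). It overlaps the annotated antisense transcripts Gm48095 and Gm26587, so its reads are uncertain too. Grk5 was picked after its values were seen.

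**Figure D1:**
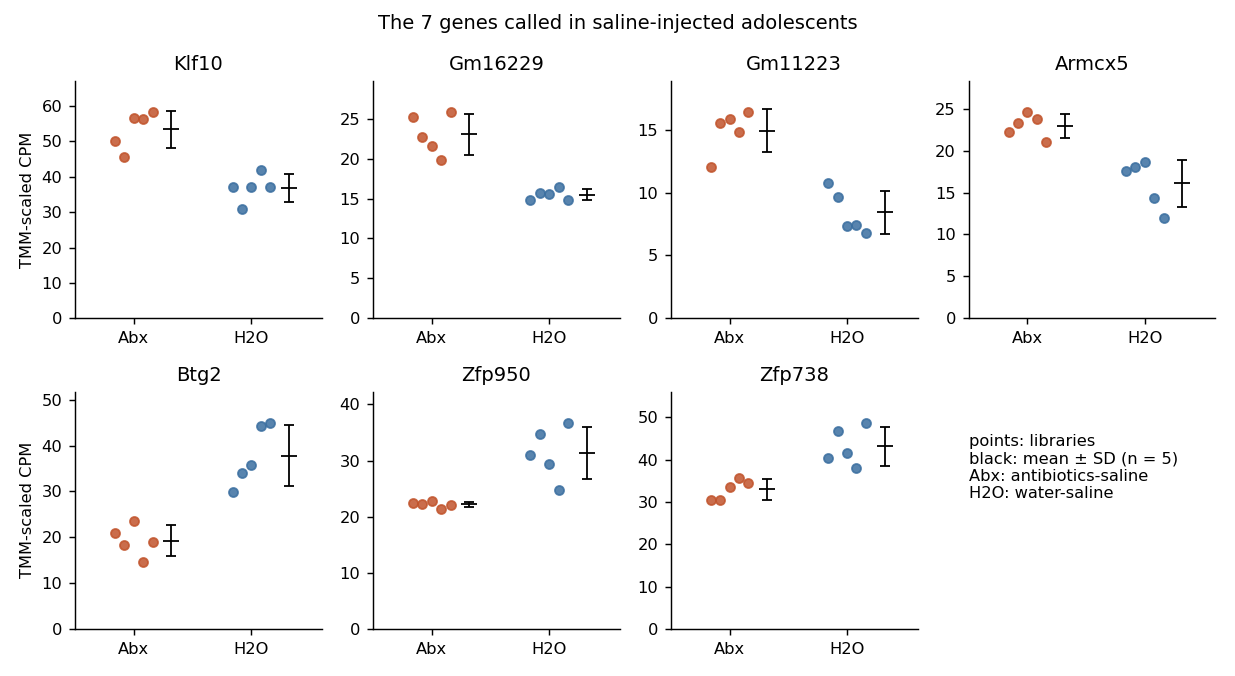
Level of each of the 7 called genes in TMM-scaled CPM (vertical axis, from 0) in the 5 antibiotics-saline (Abx, orange) and 5 water-saline (H2O, blue) libraries of adolescents, with the mean and SD of 5 in black. In every panel the 5 orange points lie on one side of the 5 blue points; Klf10 ranges from 45.7 to 58.3 CPM with antibiotics and from 31.0 to 42.0 CPM on water.

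Promoters of the called genes are shown because Btg2 is on the immediate early list and many such genes carry a cAMP response element. Whether CREB had a part in its fall was not tested. Of the 7 called genes, 4 matched an entry in the RefSeq promoter table for GRCm38.p6. The 250 bases before the annotated start of Btg2 (chr1:134079156-134079405, minus strand), Zfp950 (chr19:61140841-61141090, minus strand) and Armcx5 (chrX:135742442-135742691, plus strand) read as follows, 5′ to 3′ on the strand of the gene, where capitals mark the cAMP response element TGACGTCA or its core TGACG on either strand.
Btg2: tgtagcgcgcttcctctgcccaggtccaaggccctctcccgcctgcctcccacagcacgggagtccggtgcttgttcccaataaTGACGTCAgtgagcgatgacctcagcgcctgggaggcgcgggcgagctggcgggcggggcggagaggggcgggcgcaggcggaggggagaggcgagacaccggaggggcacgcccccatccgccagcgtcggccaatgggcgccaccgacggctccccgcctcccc
Zfp950: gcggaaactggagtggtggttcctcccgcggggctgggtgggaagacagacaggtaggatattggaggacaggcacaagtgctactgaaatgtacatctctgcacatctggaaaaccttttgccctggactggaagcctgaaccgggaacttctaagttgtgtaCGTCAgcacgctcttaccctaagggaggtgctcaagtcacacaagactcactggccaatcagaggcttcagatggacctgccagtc
Armcx5: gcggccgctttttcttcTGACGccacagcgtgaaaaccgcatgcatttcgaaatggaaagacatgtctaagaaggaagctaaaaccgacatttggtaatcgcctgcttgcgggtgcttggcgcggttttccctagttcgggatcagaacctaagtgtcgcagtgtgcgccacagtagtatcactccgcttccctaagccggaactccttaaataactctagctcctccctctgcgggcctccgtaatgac

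The Btg2 window held the full element TGACGTCA 166 bases before the start, a match found in 508 of 32851 mouse promoter windows of the same length. The core TGACG, which the full element contains on both strands, was found 86 bases before the start of Zfp950 and 233 bases before that of Armcx5, and in 17.8% of all windows. The Zfp738 window (chr13:67683513-67683762, minus strand) held neither. That window lies inside the gene span given above, so it does not cover the bases before the start of that span. Btg2 also held the GC box GGGCGG 3 times, a match found at least once in 32.7% of windows, and the 3 other windows held none. The AP-1 site TGANTCA and the E-box CACGTG, found in 6.75% and 6.02% of all windows, were in none of the 4. A match is a description of these letters and does not show that a factor binds there.

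How firmly each of the 7 calls stood was read by leaving out each of the 10 libraries in turn. Klf10 kept its call in 9 of 10 such fits and lost it without antibiotics replicate 5 (log2 fold change 0.50, adjusted p = 0.0673), and Gm16229 did likewise (0.53, adjusted p = 0.0673). Btg2 lost its call without antibiotics replicates 2, 4 and 5 and without water replicates 4 and 5, with log2 fold changes of -1.05 to -0.88 over the 10 fits and adjusted p-values of up to 0.149. Armcx5, Zfp950 and Zfp738 lost theirs in 7 of 10 fits each, which were those without each antibiotics replicate and, for Armcx5, without water replicate 4 or 5 and, for the zinc finger genes, without water replicate 2 or 5. Gm11223 lost its call in 8 of 10, all but those without antibiotics replicate 1 or water replicate 1. The adjusted p-values reached 0.22 for Armcx5, 0.155 for each zinc finger gene and 0.176 for Gm11223. The count of calls was 6, 2, 3, 2 and 0 without antibiotics replicates 1 to 5 and 13, 5, 12, 5 and 2 without water replicates 1 to 5, and where it was 0, 1801 genes had an unadjusted p under 0.05. Without both water replicates 4 and 5, Klf10 alone was called, at 0.61 (adjusted p = 0.0177). Btg2 then stood at -0.78 (adjusted p = 0.266) and Armcx5 at 0.35 (adjusted p = 0.431).

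Among immediate early genes edgeR called a single fall. Of 32 listed, 31 were tested and 1, Btg2, was called lower, against 3 lower with DESeq2 and 2 lower with limma-voom. At an unadjusted p under 0.05, 8 were lower and 3 higher, but 4 were lower and 9 higher without water replicates 4 and 5. The median log2 fold change was -0.02 with 17 of 31 negative, beside a median near 0 (-0.0046) over all genes tested, with members from -1.12 to 0.52. Without both libraries the median was 0.12 and 11 of 31 were negative. It was 0.04 without water replicate 4 alone and -0.02 without water replicate 5 alone, so the sign of this small median turned with replicate 4. The 4 members of the most negative fold change were Npas4, Ccn1, Btg2 and Gadd45g.

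Npas4, a neuron-specific factor that acts on inhibitory synapses, had 26.2, 22.7, 33.6, 20.6 and 55.6 CPM with antibiotics, against 74.7, 58.2, 67.5, 72.2 and 70.9 CPM on water. The groups did not overlap, although antibiotics replicate 5 came close to the lowest water library. Its log2 fold change of -1.12 ± 0.33 (SE) did not pass edgeR's test (adjusted p = 0.231), while limma-voom, which weighs libraries by their quality, called it at -1.18 (adjusted p = 0.0203). Gadd45g, a growth arrest and DNA demethylation gene, had 9.72, 9.39, 12.9, 10.2 and 10.7 CPM with antibiotics, against 15.7, 14.4, 17.2, 15.6 and 18.1 CPM on water. These groups did not overlap either, at -0.62 ± 0.15 (SE; adjusted p = 0.0933), and DESeq2 called the gene (adjusted p = 0.0475). Ccn1, a secreted matricellular protein gene, had 10.5, 5.31, 7.01, 2.93 and 4.83 CPM with antibiotics, against 8.03, 8.57, 10.3, 14.9 and 19.6 CPM on water. Here antibiotics replicate 1 lay among the water libraries, and the log2 fold change was -1.0 ± 0.23 (SE; adjusted p = 0.073). DESeq2 called Ccn1 (adjusted p = 0.038), and without water replicates 4 and 5 it was at -0.54 (adjusted p = 0.627).

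Other early genes were not called. Fos, the usual marker of firing neurons, had 26.8, 24.5, 35.6, 26.0 and 48.8 CPM with antibiotics, against 44.7, 39.7, 47.0, 61.8 and 50.8 CPM on water, where antibiotics replicate 5 lay among the water libraries (log2 fold change -0.60 ± 0.22, SE; adjusted p = 0.354). Ier2 stood at -0.55 ± 0.15 (SE; adjusted p = 0.18) and Fosb at -0.37 ± 0.14 (SE; adjusted p = 0.363), while Fosl2, another member of the Fos family, was at 0.23 ± 0.15 (SE; adjusted p = 0.639). Without water replicates 4 and 5 Ier2 was at -0.33 (adjusted p = 0.696). Some activity genes had positive values. Nr4a3, an orphan nuclear receptor, stood at 0.48 ± 0.20 (SE; adjusted p = 0.407), with all 5 antibiotics libraries above all 5 water libraries. Of its family members, Nr4a2 had a negative value, at -0.41 ± 0.17, and Nr4a1 was near 0, at -0.02 ± 0.15 (SE, adjusted p = 0.405 and 0.974). Csrnp1 stood at 0.35 ± 0.13 (SE; adjusted p = 0.367), or 0.60 (adjusted p = 0.144) without water replicates 4 and 5. The classical genes Arc, Egr1 and Junb had log2 fold changes of -0.16, -0.12 and -0.13 (adjusted p = 0.858, 0.885 and 0.823), and without those libraries Arc was at 0.18. Npas4, Ier2, Fosb, Fosl2, Nr4a1, Nr4a2, Nr4a3, Csrnp1, Arc, Egr1 and Junb are outside the rule for named genes and were picked after their values were seen. Over all genes tested, groups that did not overlap were found for 324 genes, or 1.81%, with antibiotics above in 161 (0.9%) and below in 163 (0.912%). Among the 31 early genes antibiotics lay above in 1 and below in 3.

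**Figure D2:**
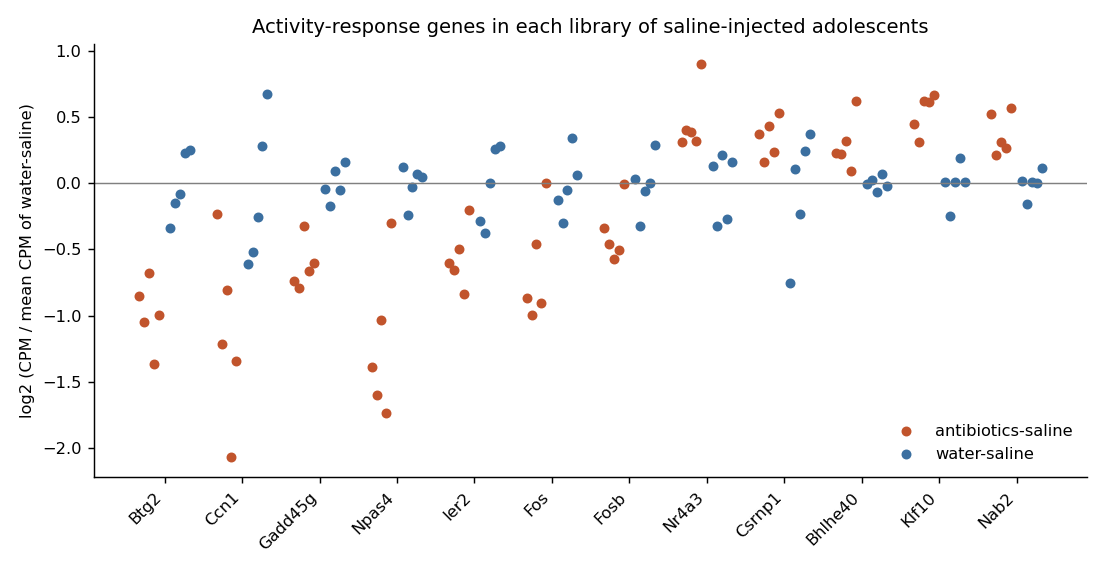
Level of 12 picked activity-response genes in each library, as log2 of CPM over the mean CPM of the 5 water-saline libraries (vertical axis). Antibiotics-saline is in orange on the left of each pair and water-saline in blue. The genes were picked with results of these data known, and Klf10, Nab2 and Bhlhe40 are not on the immediate early list. Among the 31 tested genes of that list antibiotics lay wholly above water in 1 and wholly below in 3. Btg2, Npas4 and Gadd45g have all orange points below all blue points, and Nr4a3, Klf10, Nab2 and Bhlhe40 all above; in Fos and Ccn1 the colours overlap.

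The genes next in rank by p missed the threshold of edgeR's test and are given as values. Above water were Gldn, which encodes gliomedin, a protein that gathers sodium channels at nodes of Ranvier, with 2.86, 3.06, 2.65, 3.66 and 2.92 CPM with antibiotics, against 0.688, 0.542, 1.47, 1.66 and 1.45 CPM on water. Its groups did not overlap, at a low level, and its log2 fold change was 1.36 ± 0.31 (SE; adjusted p = 0.0723). The clock-linked repressor gene Bhlhe40 stood at 0.31 ± 0.08, Mapkapk2, a kinase gene of the p38 pathway, at 0.34 ± 0.08, the receptor scaffold gene Grasp at 0.30 ± 0.07 and the muscle kelch gene Klhl40 at 0.61 ± 0.15 (log2 fold change ± SE; adjusted p = 0.0953 for each). The proteasome subunit gene Psmb1 was at 0.23 ± 0.06 (adjusted p = 0.106) and the small GTPase gene Rab40b at 0.36 ± 0.09 (adjusted p = 0.112). DESeq2 called Bhlhe40, Mapkapk2, Grasp, Klhl40, Psmb1, Rab40b and also Nab2, with adjusted p-values from 0.0196 for Psmb1 to 0.0497 for Rab40b, and gave none for Gldn. Of these and Gldn, limma-voom called Gldn, Grasp, Psmb1 and Nab2.

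Below water, Csmd3, which encodes a very large transmembrane protein, had 24.6, 24.9, 28.0, 31.0 and 26.8 CPM with antibiotics, against 36.3, 39.8, 39.1, 31.3 and 36.9 CPM on water. The groups did not overlap, by a narrow margin between antibiotics replicate 4 and water replicate 4, and the log2 fold change was -0.44 ± 0.10 (SE; adjusted p = 0.0723). The dynein adaptor gene Bicd2 was at -0.26 ± 0.06 (adjusted p = 0.0723). At an adjusted p of 0.073 stood Hif1an, whose product restrains the hypoxia-inducible factor, at -0.29 ± 0.07, the kinase gene Hipk2 at -0.43 ± 0.10, the polycomb gene Phc3 at -0.29 ± 0.07, Etv4, an ETS factor, at -0.59 ± 0.14, Tsga10 at -0.46 ± 0.11 and Ovca2 at -0.65 ± 0.15 (log2 fold change ± SE). DESeq2 called Csmd3, Bicd2, Hif1an, Hipk2, Phc3, Etv4, Tsga10 and Ovca2, and limma-voom called these except Etv4 and Tsga10. Without water replicates 4 and 5 Etv4 was at -0.32 (adjusted p = 0.65). Ovca2 overlaps 1700016P03Rik on the other strand, the host transcript of the activity-regulated microRNA genes Mir212 and Mir132, which was at -0.58 ± 0.14 (SE; adjusted p = 0.0933), or -0.34 without those libraries (adjusted p = 0.627), and was picked after its values were seen. Reads of this pair cannot be told apart.

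Relatives of the called genes were read from lists of their families and pathways. Of 21 tested Klf and Sp factors, Klf10 was called higher and the median was 0.02. Of 31 tested genes of TGF-beta and BMP signalling, which include the receptors, Smad transducers and Id targets, 0 were called by edgeR, DESeq2 or limma-voom, 2 were higher and 1 lower at an unadjusted p under 0.05, and the median was 0.05. Id2, a target of BMP signalling, was at 0.19 ± 0.07 (adjusted p = 0.37) and Bambi, a decoy receptor, at 0.50 ± 0.24 (adjusted p = 0.483). Of 20 tested antiproliferative and growth arrest genes 1, Btg2, was called, with a median of 0.04 and 12 positive fold changes. Among them the stress-induced mTOR inhibitor gene Ddit4 was at 0.42 ± 0.12 (adjusted p = 0.221). Of 18 MAP kinase phosphatases and feedback inhibitors 0 were called by any of the 3 tools, 2 were higher and 1 lower at an unadjusted p under 0.05, and the median was 0.07. Without water replicates 4 and 5 the medians were 0.08 for the TGF-beta and BMP genes and 0.12 for both the growth arrest list and the phosphatase list.

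The list of Armcx, Gprasp and Bex genes and their relatives, which holds Armcx5 itself, leaned the way of that gene. Of 20 tested, 19 had a positive fold change, Armcx5 among them, against 8713 of 17880 over all genes, and 1, Armcx5, was called. The median was small, at 0.07, and 4, Armcx5 included, had an unadjusted p under 0.05, all higher. Tceal9 was at 0.22 ± 0.07 (SE; adjusted p = 0.251) and Tceal5 at 0.19 ± 0.09 (SE; adjusted p = 0.462). Without water replicates 4 and 5 the median stayed at 0.07 but 12 of 20 were positive and 8 negative. For antibiotics over water in saline-injected adults the list leaned the other way, with a median of -0.09 and 15 of 20 negative. In morphine-injected adolescents it did so too, with a median of -0.11 and 15 of 20 negative. A list of the 327 tested genes with a Zfp number symbol was added after the 2 zinc finger calls were seen. Of these, 2 were called lower, the median was -0.02 and 182 were negative (55.7%, against 51.3% over all genes). At an unadjusted p under 0.05, 16 of the 327 were lower and 6 higher, beside 5.45% lower and 4.31% higher over all genes.

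Markers of glia leaned lower with antibiotics, and the lean was smaller or absent without water-saline replicates 4 and 5. These 2 libraries were singled out in part by their astrocyte sums. Some loss of the lean without them was thus built in and cannot show what it rested on. Water replicate 2, with astrocyte markers at a summed 6805 CPM, was also above the highest antibiotics library (6256 CPM). Water replicates 1 and 3, at 5918 and 5751 CPM, were not. In bulk tissue, fewer cells of a type and less RNA per cell cannot be told apart. Of 18 astrocyte markers 16 were negative, with a median log2 fold change of -0.20; 7 were lower at an unadjusted p under 0.05 and 0 were called. The glutamate transporter gene Slc1a2 had 2286, 2747, 2859, 2831 and 2749 CPM with antibiotics, against 2791, 3184, 2748, 3791 and 3872 CPM on water. The groups overlapped and water replicates 4 and 5 were far above the rest (log2 fold change -0.28 ± 0.09, SE; adjusted p = 0.248), and without them it was at -0.11 (adjusted p = 0.847). Sox9, the factor that maintains astrocyte identity, had 28.8, 36.8, 32.3, 36.2 and 36.4 CPM with antibiotics, against 41.0, 40.1, 41.5, 48.8 and 47.5 CPM on water. Its groups did not overlap, at -0.36 ± 0.11 (SE; adjusted p = 0.249), and without water replicates 4 and 5 it was at -0.26 (adjusted p = 0.696). Without water replicates 4 and 5, 9 of the 18 astrocyte markers were negative and the median was 0.00.

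Oligodendrocyte precursor and myelin markers had medians nearer 0 without the same libraries, though most stayed negative. All 15 precursor markers were negative, with a median of -0.22 and 5 at an unadjusted p under 0.05, and without water replicates 4 and 5 the median was -0.06 with 11 of 15 negative. Olig2, the lineage factor, was at -0.45 ± 0.14 (SE; adjusted p = 0.249), or -0.30 without both (adjusted p = 0.711). Olig1 was at -0.31 ± 0.11 (SE; adjusted p = 0.363), or -0.13 without both (adjusted p = 0.886). Of 20 oligodendrocyte and myelin markers 19 were negative, with a median of -0.20 and 3 lower and 1 higher at an unadjusted p under 0.05. The median was -0.05 without water replicate 4 alone and -0.04 without both, where 13 of 20 were negative. Trf, the iron carrier transferrin, was at -0.41 ± 0.12 (SE; adjusted p = 0.228), or -0.31 without both (adjusted p = 0.627). Fa2h, which makes the hydroxylated lipids of myelin, was at -0.41 ± 0.15 (SE; adjusted p = 0.341), or -0.36 without both (adjusted p = 0.646). Mbp, a main myelin protein, was at -0.26 ± 0.16 (SE; adjusted p = 0.618), or -0.089 without both (adjusted p = 0.95). Summed myelin markers reached 2644 CPM in water replicate 4, against 1475 to 2048 CPM in the antibiotics libraries and 1481 to 2088 CPM in the other 4 water libraries.

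Of 20 microglia markers 20 were negative, with a median of -0.15 and 4 at an unadjusted p under 0.05. Without water replicates 4 and 5 the median was 0.03 with 8 negative. It was -0.15 without replicate 4 alone and -0.04 without replicate 5 alone. The summed level of microglia markers ran from 548 to 614 CPM with antibiotics, and on water from 548 to 843 CPM, where replicate 5 was the highest. Csf1r, the receptor that microglia need to survive, was at -0.21 ± 0.10 (SE; adjusted p = 0.498), Laptm5 at -0.26 ± 0.12 (SE; adjusted p = 0.462) and Olfml3 at -0.54 ± 0.15 (SE; adjusted p = 0.206). Without both water libraries Csf1r was at -0.018, Laptm5 at -0.081 and Olfml3 at -0.32 (adjusted p = 0.984, 0.924 and 0.708). Endothelial markers had a median of -0.12, which was 0.09 without both water libraries, with 2 members lower at an unadjusted p under 0.05. Mural, fibroblast and leptomeningeal markers had a median of 0.06, which was 0.34 without them, with 0 such members. For all of these cell types edgeR, DESeq2 and limma-voom called 0 members, and for the neuronal lists as well. Excitatory neuron markers had a median of -0.01 with and without the 2 libraries, and 1 was higher at an unadjusted p under 0.05. Inhibitory interneuron markers had a median of -0.07 (-0.01 without the 2 libraries) with 1 such member higher and 2 lower. Striatal neuron markers had a median near 0 with 2 such members higher. Vip, the peptide of a class of interneurons, was at 0.28 ± 0.09 (SE; adjusted p = 0.247).

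**Figure D3:**
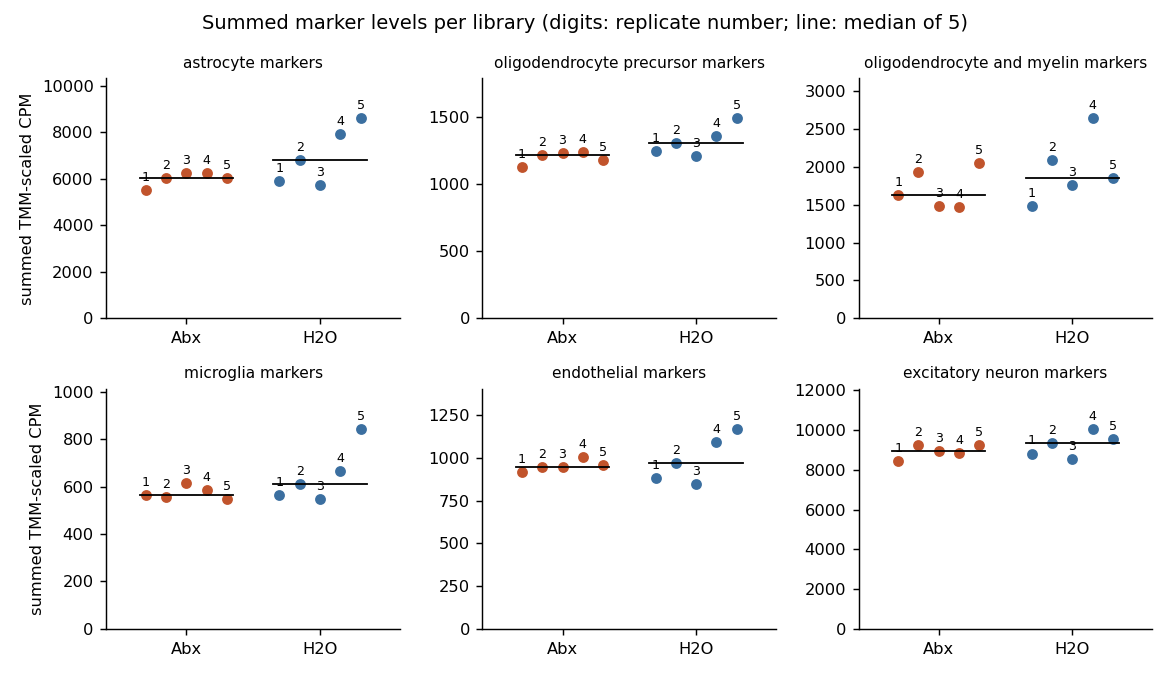
Summed level of 6 cell type marker lists in TMM-scaled CPM (vertical axes, from 0) in each antibiotics-saline (Abx, orange) and water-saline (H2O, blue) library, with replicate numbers as digits and medians of 5 as lines. Water replicates 4 and 5 have the highest astrocyte, precursor, microglia and endothelial sums, and the other 3 water libraries lie among or close to the antibiotics libraries. Their excitatory neuron sums, 10042 CPM in replicate 4 and 9538 CPM in replicate 5, are also the highest, above 9324 CPM in water replicate 2.

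Genes of immune signalling showed no call with any of the 3 tools. Of 28 tested Toll-like receptor and NF-kB genes 21 were negative and the median was -0.09 (16 and -0.04 without water replicates 4 and 5), with 3 lower and 2 higher at an unadjusted p under 0.05. The kinase gene Chuk had 33.3, 30.9, 32.1, 30.4 and 36.9 CPM with antibiotics, against 38.9, 39.0, 36.1, 37.2 and 51.6 CPM on water. Water replicate 5 was far above the rest, and antibiotics replicate 5 lay among the water libraries (log2 fold change -0.31 ± 0.09, SE; adjusted p = 0.169). The receptor kinase gene Irak2 was at -0.34 ± 0.10 (SE; adjusted p = 0.192), while 2 inhibitors of the pathway had positive values, Tnfaip3 at 0.39 ± 0.14 (SE; adjusted p = 0.337) and Nfkbia at 0.39 ± 0.16 (SE; adjusted p = 0.392). Without those libraries Tnfaip3 was at 0.26 and Nfkbia at 0.62 (adjusted p = 0.764 and 0.329). Of 24 tested interferon response genes 19 were negative and 3 lower at an unadjusted p under 0.05, with a median of -0.15 that was 0.01 without water replicates 4 and 5. Of 16 tested complement and synapse pruning genes 12 were negative and 1 lower at that p, with a median of -0.10, which was 0.04 without those libraries, and the phagocytic receptor gene Megf10 was at -0.36 ± 0.12 (SE; adjusted p = 0.319), or -0.098 without them (adjusted p = 0.918).

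Lists chosen for what gut bacteria are known to supply or touch had 0 called members with any of the 3 tools. Tight junction and barrier genes had a median of -0.11 with 1 member lower at an unadjusted p under 0.05, and the median was 0.04 without water replicates 4 and 5. Genes of the aryl hydrocarbon receptor, which binds bacterial tryptophan products, had a median of 0.02 with 0 members at an unadjusted p under 0.05, and one of 0.00 with 1 higher without those libraries. Its target Tiparp was at 0.26 ± 0.14 (SE; adjusted p = 0.551), or 0.63 without them (adjusted p = 0.121). Histone deacetylases, of which the bacterial acid butyrate inhibits the zinc-dependent ones, and the NAD-dependent sirtuins together had a median of -0.05 with 1 higher and 1 lower at that p. Glucocorticoid receptors and targets had a median of 0.10 with 14 of 22 positive and 2 higher at that p, and the median was 0.13 without the 2 water libraries. The receptor co-chaperone gene Fkbp5 was at 0.12 ± 0.12 (SE; adjusted p = 0.758), with 20.7 to 26.7 CPM with antibiotics and 18.4 to 25.1 CPM on water, which overlapped.

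Of the opioid, GABA, glutamate, serotonin and dopamine receptor lists 0 members were called with any of the 3 tools. Of 15 opioid receptor and peptide genes 11 were negative, with a median of -0.09, which was -0.03 with 9 negative without water replicates 4 and 5, and 1 higher and 1 lower at an unadjusted p under 0.05. The delta receptor gene Oprd1 was at -0.18 ± 0.09 (SE; adjusted p = 0.52). The mu receptor gene Oprm1, which morphine acts on, was low, with 3.72, 4.59, 4.46, 3.03 and 2.47 CPM with antibiotics, against 3.56, 4.34, 5.67, 3.31 and 2.58 CPM on water. The groups overlapped almost fully, and the log2 fold change was -0.086, or -0.30 without those libraries (adjusted p = 0.929 and 0.842). The peptide precursor gene Penk ranged from 30.3 to 42.9 CPM with antibiotics and from 29.8 to 48.1 CPM on water, which overlapped as well, and its fold change turned its sign without those libraries (log2 -0.11 with them and 0.11 without). GABA, glutamate, and serotonin and dopamine receptor genes had medians of 0.06, -0.02 and 0.08, with 5 of 14, 14 of 24 and 4 of 14 negative. Without those libraries the medians were -0.02, -0.04 and -0.02, with 9 of 14, 20 of 24 and 8 of 14 negative. The GABA receptor and the serotonin and dopamine receptor medians thus turned their sign. The GABA receptor median was 0.08 without water replicate 4 alone and -0.02 without water replicate 5 alone. For serotonin and dopamine receptors these were 0.06 and 0.05. At an unadjusted p under 0.05, 1 GABA receptor gene was higher and 1 lower, 3 glutamate receptor genes were lower, and 0 of the serotonin and dopamine receptor genes passed. Among them Gabra4, a subunit of extrasynaptic GABA receptors, was at 0.17 ± 0.06 (adjusted p = 0.363) and the glutamate receptor gene Grm3 at -0.23 ± 0.10 (adjusted p = 0.437).

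The neurotrophin gene Bdnf had 37.7, 37.3, 40.3, 41.4 and 39.1 CPM with antibiotics, against 30.6, 26.9, 38.9, 33.2 and 32.2 CPM on water. Only water replicate 3 reached the antibiotics libraries, and the log2 fold change was 0.27 ± 0.10 (SE; adjusted p = 0.363). Inhba, the activity-regulated subunit of activin, had 10.3, 11.5, 9.66, 8.46 and 10.2 CPM with antibiotics, against 12.2, 13.6, 18.6, 13.1 and 13.5 CPM on water. Its groups did not overlap and water replicate 3 stood far above, at -0.50 ± 0.16 (SE; adjusted p = 0.249). The 19 tested genes of the Bdnf and activity-regulated synaptic list had a median of 0.08. Clock genes had a median of -0.03, cholesterol synthesis genes one of 0.00 and chaperone genes one of 0.01, and without water replicates 4 and 5 these were 0.02, 0.02 and -0.02. Rbm3, which encodes an RNA-binding protein induced by cold, had 64.4, 71.5, 64.4, 69.6 and 66.0 CPM with antibiotics, against 52.7, 60.4, 50.6, 55.5 and 55.1 CPM on water. The groups did not overlap, at 0.29 ± 0.08 (SE; adjusted p = 0.138), and Cirbp, of the same kind, was at 0.30 ± 0.10 (SE; adjusted p = 0.269). Over the 6 genes of the list that held both the median was 0.05.

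**Figure D4:**
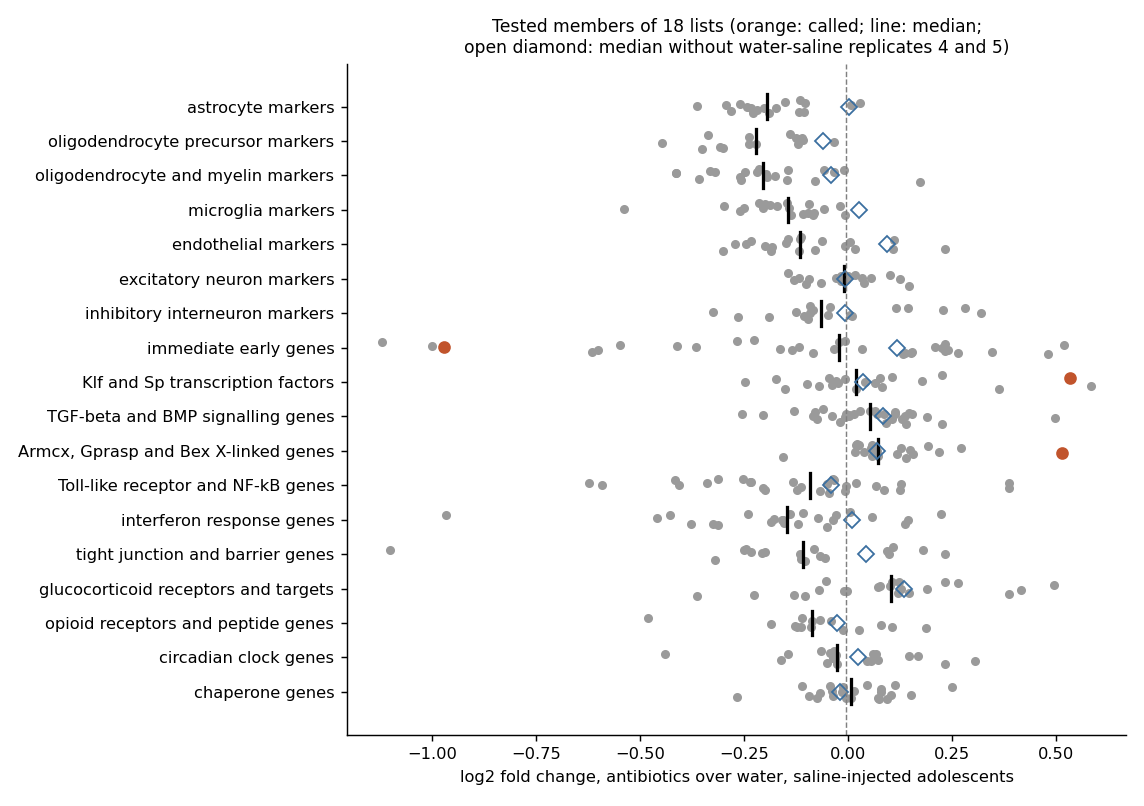
Log2 fold change of antibiotics over water in saline-injected adolescents (horizontal axis) for every tested member of 18 lists, with called members in orange, the median of each list as a black line, and its median without water-saline replicates 4 and 5 as an open blue diamond; the dashed line is the median over all genes tested. The astrocyte median is -0.20 with all libraries and 0.00 without those 2, and the microglia median is -0.15 and 0.03, while that of the Armcx, Gprasp and Bex genes is 0.07 in both.

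Whether the change with antibiotics differed with age was tested against adults, and the 2 sides of this test share no library. Of 17880 genes 4 passed (0.0224%), all with a lower fold change in adolescents than in adults: Csmd3, Phc3, Fcho2 and AC167245.1. Csmd3 had a log2 fold change of -0.44 ± 0.10 in adolescents and 0.27 ± 0.10 in adults, a difference of -0.71 ± 0.14 (SE; adjusted p = 0.0383). Phc3 had -0.29 ± 0.07 in adolescents and 0.17 ± 0.07 in adults, a difference of -0.46 ± 0.09 (SE; adjusted p = 0.0393). Fcho2, which starts clathrin-coated pits, had -0.28 ± 0.08 in adolescents and 0.25 ± 0.07 in adults, a difference of -0.53 ± 0.11 (SE; adjusted p = 0.0393). At neither age was the change of these 3 genes called on its own. AC167245.1 had 0, 1, 2, 0 and 1 counts with antibiotics, against 7, 9, 3, 3 and 4 counts on water in adolescents, so it was read at or near the level of 3 counts. It was chosen after its values were seen. Without single libraries the count of calls by age ranged from 0 to 11, and it was 0 without adolescent antibiotics replicate 1 or 2, adolescent water replicate 2, adult antibiotics replicate 3 or adult water replicate 3. It was 2 without adolescent antibiotics replicate 4 or adolescent water replicate 5 and 1 without adult water replicate 2. It was 8 without adolescent antibiotics replicate 5, 7, 7 and 11 without adult antibiotics replicates 1, 2 and 4, and 7 without adult water replicate 1. Where it was 0, 1619 to 1848 genes had an unadjusted p under 0.05.

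For the 7 genes called in adolescents the difference between ages was not called. Btg2 fell in saline-injected adults too, with 10.4 ± 1.87 CPM with antibiotics and 29.5 ± 4.37 CPM on water (SD, n = 5 each), a change of -1.51 ± 0.19 on the log2 scale (SE; adjusted p = 6.78e-05). The difference between ages was 0.53 ± 0.26 (SE; adjusted p = 0.497). In adults 9 genes were called (0.0503%), and among them were the early genes Gadd45g, at -0.91 ± 0.16 (SE; adjusted p = 0.00322), and Ccn1, at -1.21 ± 0.24 (SE; adjusted p = 0.0227), which in adolescents missed the threshold at -0.62 and -1.0. Zfp950 had 30.6 ± 4.18 CPM with antibiotics and 32.2 ± 3.17 CPM on water in adults (SD, n = 5 each), and Zfp738 had 40.5 ± 4.10 CPM with antibiotics and 40.4 ± 3.62 CPM on water (SD, n = 5 each). Their differences between ages, -0.43 ± 0.14 and -0.39 ± 0.11 (SE), did not pass (adjusted p = 0.266 and 0.188), nor did that of Klf10, at 0.27 ± 0.13 (SE; adjusted p = 0.483). The largest of the 7 was Gm11223, at 1.17 ± 0.24 (SE; adjusted p = 0.0548), which had 9.15 ± 1.62 CPM with antibiotics and 11.6 ± 3.02 CPM on water in adults (SD, n = 5 each).

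Whether it differed with the injection was tested against morphine-injected adolescents, which again share no library with the saline side. Here 221 of 17880 genes passed (1.24%), 110 with a higher fold change under saline than under morphine (0.615%) and 111 with a lower one (0.621%). Under morphine 1351 genes changed with antibiotics (7.56%), against the 7 under saline. Klf10 was among the genes that differed: its log2 fold change was 0.53 ± 0.09 under saline and -0.18 ± 0.10 under morphine, a difference of 0.72 ± 0.13 (SE; adjusted p = 0.00878). Under morphine it had 35.6 ± 3.46 CPM with antibiotics and 40.4 ± 4.32 CPM on water (SD, n = 5 each). Gm16229 had 0.57 ± 0.10 under saline and -0.15 ± 0.10 under morphine, a difference of 0.73 ± 0.14 (SE; adjusted p = 0.00878).

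For each of the genes that come next, the fold change was further from 0 under morphine than under saline. Bdnf had the smallest p, with 0.27 ± 0.10 under saline and -0.66 ± 0.11 under morphine, a difference of 0.93 ± 0.15 (SE; adjusted p = 0.00166). Rheb, the GTPase that activates mTORC1, had 0.18 under saline and -0.35 under morphine, a difference of 0.53 ± 0.10 (SE; adjusted p = 0.00878), and Tceal9 and the cyclophilin gene Ppid differed by 0.52 ± 0.10 and 0.51 ± 0.10. In the other direction stood Crtc3, a coactivator of CREB, with -0.29 ± 0.10 under saline and 0.46 ± 0.10 under morphine, a difference of -0.74 ± 0.14 (SE; adjusted p = 0.00878). Fam214a differed by -0.58 ± 0.11, the atrophin-family gene Rere by -0.38 ± 0.08 and the phospholipase gene Plcd3 by -0.74 ± 0.15 (SE), all with adjusted p-values between 0.00878 and 0.0118. Fkbp5 differed by -0.62 ± 0.16 (SE; adjusted p = 0.0395), since it stood at 0.12 under saline and 0.74 under morphine. The count of 221 ranged from 19 to 773 without single libraries. On the saline side it was 31 and 28 without antibiotics replicates 3 and 4, and 334 and 28 without water replicates 3 and 5. On the morphine side it was 19, 48, 130 and 773 without antibiotics replicates 2, 3, 4 and 5, and 38 and 66 without water replicates 2 and 3. It was 40 without both water-saline replicates 4 and 5.

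Armcx5, Zfp950 and Btg2 gave other patterns across the 2 injections. Armcx5 was called under morphine too, at 0.54 ± 0.11 (SE; adjusted p = 0.000824), with 26.6 ± 4.68 CPM with antibiotics and 18.3 ± 1.69 CPM on water (SD, n = 5 each). Zfp950 fell under morphine as well, at -0.69 ± 0.10 (SE; adjusted p = 1.26e-05), with 17.8 ± 2.84 CPM with antibiotics and 28.7 ± 3.79 CPM on water (SD, n = 5 each). Their differences by injection were -0.02 ± 0.15 and 0.19 ± 0.14 (SE; adjusted p = 0.959 and 0.511). Btg2 under morphine was low on either drink, with 9.75 ± 2.86 CPM with antibiotics and 9.64 ± 2.43 CPM on water (SD, n = 5 each), and its difference by injection, -1.0 ± 0.28 (SE), missed the threshold (adjusted p = 0.0649). Over all 8 groups the Btg2 mean was highest in the 2 water-saline groups, 37.8 CPM in adolescents and 29.5 CPM in adults. It was 19.3 CPM in antibiotics-saline adolescents and between 9.56 and 10.4 CPM in the other 5 groups, which did not differ beyond their SDs of 1.87 to 3.27 CPM.

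**Figure D5:**
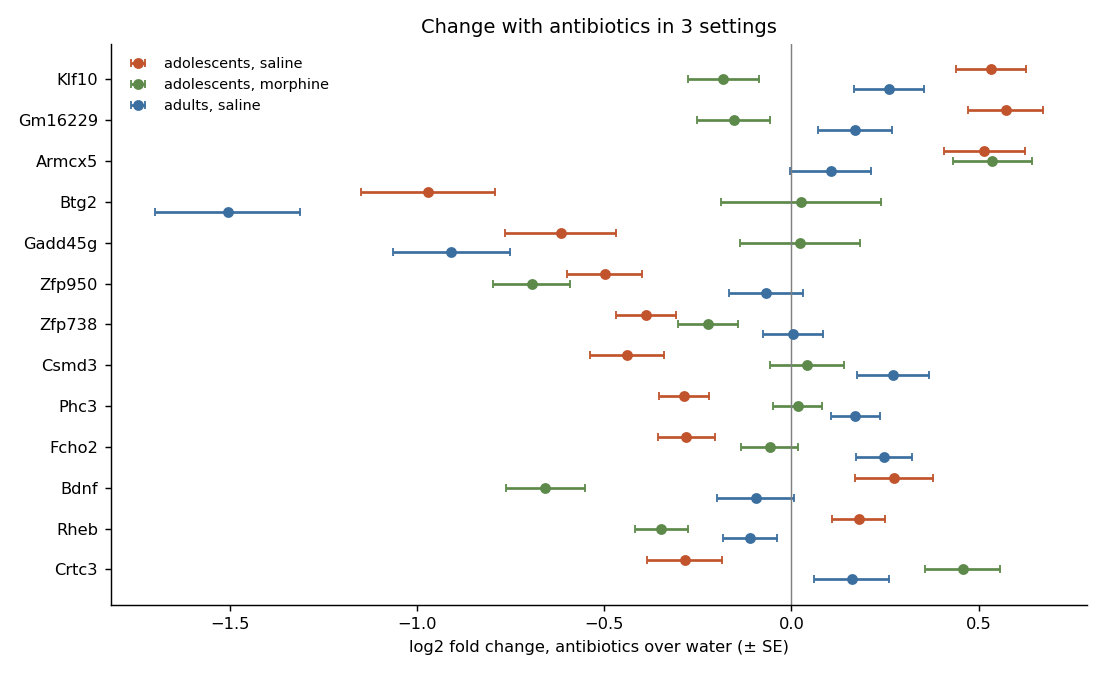
Log2 fold change of antibiotics over water (horizontal axis, ± SE) for 13 genes in saline-injected adolescents (orange), morphine-injected adolescents (green) and saline-injected adults (blue). Klf10 is at 0.53 under saline and -0.18 under morphine in adolescents; Armcx5 and Zfp950 keep their direction under morphine, at 0.54 and -0.69; Btg2 is at -0.97 in adolescents and -1.51 in adults under saline.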

How the data were processed

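Polyadenylated RNA from 40 samples was extracted with a column kit and made into libraries, per the labels' protocols. The deposited table holds raw read counts of 56980 genes, which the authors did not normalize. The submitters' processing notes name STAR 2.7.10a, DESeq2 and the mouse build mm10, while neither the annotation nor the strand setting of counting is stated in the sources used here. Identifiers were looked up in GENCODE M21 (GRCm38) with the version removed, which gave 52073 symbols (91.4%). With the version only 35 matched, so annotated positions may differ slightly from the gene models counted. No pair of replicates was treated as a duplicate, since their chi-square per gene was between 2.2 and 16.2.

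The model was fitted in edgeR 4.0.16 under R 4.3.3. After filterByExpr (minimum count 10, minimum total 15) and TMM scaling, a robust quasi-likelihood model with 1 coefficient per group was fitted to all 40 libraries. Contrasts were tested two-sided by the quasi-likelihood F test, with Benjamini-Hochberg adjustment over all 17880 genes. Genes with an adjusted p under 0.05 are called, and adjusted p-values are edgeR's unless another tool is named. "Rose" and "fell" are used of called genes. The SE of a log2 fold change is its size over the square root of F. The biological coefficient of variation was 9.14%. Floors of 3 counts cover counting error only. The scripts were tested on simulated data.

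Named were all called genes, genes of the smallest p with a mean of at least 1 CPM up to 12 per direction, up to 3 members of each list, 8 genes whatever their p, and up to 5 genes per direction of each interaction. Of these the text names a part. The members and lists were chosen with earlier results of these data known. Alternatives were RLE size factors, no filter, a filter of 1 CPM in 5 libraries, DESeq2 1.42.0, limma-voom (limma 3.58.1) with quality weights, a fit of only the groups compared, a replicate block and leaving out each library. Leaving out 2 water-saline libraries together was chosen after seeing the data.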

Additional observations from a re-analysis of the deposited data

Results flagged for a closer look

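A sample far from the 4 others of its group, by Dixon's ratio for 5 values, was found in 12 of 224 groups checked, where chance flags about 1 in 20. With antibiotics, Mapkapk2 reached 44.6 CPM in replicate 1, Nr4a3 49.6 CPM and Egr1 457.8 CPM in replicate 5 and summed tight junction and barrier genes 1018 CPM, while Slc1a2 was lowest in replicate 1 at 2286 CPM. On water, Chuk reached 51.6 CPM, Hdac5 219.9 CPM and summed Toll-like receptor and NF-kB genes 600.1 CPM, and summed GABA receptor genes were lowest at 2260 CPM. Also on water, Inhba reached 18.6 CPM, and Id2 and the summed circadian clock genes were lowest at 69.8 and 1756 CPM.

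The change with antibiotics differed between adolescents and adults for Csmd3, Phc3 and Fcho2, by -0.71, -0.46 and -0.53 on the log2 scale. It differed for AC167245.1 by -4.68, a fitted value that depends on the prior count because the gene was read at or near 3 counts.

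Between saline and morphine in adolescents the change with antibiotics was higher under saline by 0.72 for Klf10, 0.73 for Gm16229, 0.47 for Mapkapk2, 0.30 for Psmb1, 0.93 for Bdnf, 0.52 for Tceal9, 0.53 for Rheb and 0.51 for Ppid. It was lower under saline by the log2 differences of -0.84 for Ovca2, -0.62 for Fkbp5, -0.58 for Fam214a, -0.74 for Crtc3, -0.38 for Rere, -0.74 for Plcd3 and -3.98 for AC167245.1. Each of these differences passed edgeR's quasi-likelihood test of the interaction at an adjusted p under 0.05.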

How the results depend on the processing

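The counts of genes called by the effect of antibiotics, by its difference with age and by its difference with injection were 7, 4 and 221. With no filter on low counts they were 70, 49 and 485, with DESeq2 45, 42 and 457, and with limma-voom 18, 7 and 489. In a fit of only the groups compared the counts by antibiotics and by age were 4 and 1. With both of water-saline replicates 4 and 5 left out, the counts by antibiotics and by injection were 1 and 40. Leaving out single libraries gave 0 to 13, 0 to 11 and 19 to 773. The cause was not tested. With the replicate block, the counts by antibiotics and by age were 11 and 10. The replicate numbers pair nothing known: same-numbered samples of the 2 groups had correlations of -0.03 to 0.04, and 0 of the 5 antibiotics samples correlated best with their own number.

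Fold changes near 0 turned their sign. Penk was at 0.11 and Arc at 0.18, both positive, and Gprasp1 at -0.042 with both water libraries left out. Over single libraries left out, Oprm1 ranged from -0.21 to 0.090, Plcd3 from -0.12 to 0.0016 and Gprasp1 from -0.0012 to 0.097.

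Depth limits low genes: 3 counts in a library stood for 0.296 to 0.347 CPM, and genes near that level, such as AC167245.1, cannot be read as present or absent.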

Other observations

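The 13 mitochondrially encoded genes split in direction: 6 had positive and 7 negative fold changes, 3 were higher and 4 lower at an unadjusted p under 0.05, and 0 were called by edgeR, DESeq2 or limma-voom. Their median log2 fold change was -0.08, and 0.03 without water-saline replicates 4 and 5. Perineuronal net and matrix genes, which enclose interneurons as the cortex matures, had a median of -0.10 with 12 of 16 negative, and -0.03 without those libraries. Of the 7 tested blood cell markers 0 were called by any of the 3 tools, 1 was higher at an unadjusted p under 0.05, and their summed level ran from 46.5 to 60.3 CPM with antibiotics and from 46.6 to 54.8 CPM on water.

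Fold changes leaned slightly with the summed exon length of a gene in the GRCm38 annotation, which 97.6% of the tested genes had. From the shortest to the longest of 5 equal groups of genes the median log2 fold changes in adolescents were 0.012, 0.015, 0.0055, -0.0064 and -0.033, and in the longest group 61.5% were negative. In saline-injected adults the order ran the other way, with medians of -0.041, -0.025, -0.0072, 0.015 and 0.046. The part of exon length in the calls was not tested.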
